A study of Mus musculus with 2 samples.

Results

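Astrocytes of the newborn mouse dentate gyrus were taken from a droplet single-cell RNA dataset as the cells that held RNA of a small set of astrocyte genes. They were selected on measured values: a cell needed at least 500 detected genes, at least 1000 UMIs (unique molecular identifiers, each standing for 1 captured RNA molecule) and at most 10% mitochondrial UMIs. It also needed at least 1 UMI of Slc1a3, the glutamate transporter GLAST, and at least 1 UMI of 2 or more of 3 further genes. These were Aldh1l1 (a folate enzyme), Aqp4 (the water channel aquaporin-4) and Acsbg1 (a fatty acyl-CoA synthetase). Cells with any UMI of Foxj1, a ciliated-cell factor, or of Pdgfra, an oligodendrocyte precursor receptor, were left out, as were cells with more than 2 UMIs of the endothelial genes Cldn5 and Flt1 together. The rule found 429 of the 4996 cells that passed the filters, 109 of 1967 in the KO library and 320 of 3029 in the control library.

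The KO library held dentate gyrus cells of hGFAP-Cre;Kdm6bF/F mice, and the control library held those of their littermates, whose genotype the labels give as WT. All animals were at postnatal day 2, and 2 animals per genotype were pooled into 1 library each, so no value below has a replicate check and no test between genotypes could be made. hGFAP-Cre is a transgene in which a human GFAP promoter drives Cre recombinase, which acts in radial glia, and the deletion is therefore inherited by their neuronal and glial progeny, while Kdm6b encodes a demethylase that removes the repressive H3K27 methyl mark. Whether any control littermate carried Cre or a floxed allele is not given in the sources used here. Tissue was dissociated with papain, and the 3′ ends of transcripts were sequenced with the 10x Genomics assay.

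Astrocytes arise from radial glia around birth. They clear glutamate from synapses and turn it into glutamine, buffer potassium, move water, supply cholesterol and lactate and secrete proteins that organise synapses. In the dentate gyrus the neural stem cells that persist into adult life share much of this gene programme, so markers such as Slc1a3 are not exclusive to mature astrocytes, and many astrocytes still divide in the days after birth.

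The astrocytes gave 874364 UMIs in the KO library and 2118828 in the control library. Their depth was 7321 UMIs per cell in KO astrocytes (median, range 1364 to 28580) and 6368.5 in control astrocytes (1090 to 20526), below the medians of 9777.5 and 7774 UMIs in all other KO and control cells. Mitochondrial genes took 3.83% of the UMIs of KO astrocytes and 3.42% of those of control astrocytes. The mix of sexes differed between the libraries: 101 KO and 137 control astrocytes had Xist and no Y-linked UMI, and 0 KO and 109 control astrocytes had Y-linked UMIs and no Xist. Only 9 barcodes were shared by the libraries, and 0 of these were astrocytes. Intervals given below are 95% intervals that cover counting error only (Clopper-Pearson for shares, exact conditional binomial for ratios of counts), not the spread between animals.

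The transcript that separated the libraries most was Prm1, the sperm chromatin protein protamine 1, a gene whose 3′ end is part of some Cre constructs; the make-up of the transgene is not given in the sources used here. All 109 KO astrocytes held Prm1 UMIs, with a median of 32 and a maximum of 194 per cell, and none of the 320 control astrocytes did. The level was 5713 CPM (a gene's UMIs scaled to the total UMIs of the cells in question) in KO astrocytes, at least 4035-fold above the 1.42 CPM that the floor of 3 counts over all control astrocytes stands for. After every cell had been thinned to 2000 UMIs, Prm1 was found in 98.1% of KO astrocytes, against 0.995% of KO endothelial cells and 2.07% of KO neurons. Kdm6b itself (chr11:69398508-69413675, minus strand) had 44 UMIs and 50.3 CPM in KO astrocytes, against 94 UMIs and 44.4 CPM in control astrocytes, a log2 ratio of 0.19 (ratio interval 0.774 to 1.64). Which exons are floxed is not given in the sources used here, so RNA counted at the 3′ end need not report the deletion. The other H3K27 demethylase of this family, Kdm6a, an X-linked gene, had 23 KO and 31 control UMIs (log2 ratio 0.85, interval 1.0 to 3.19). Its log2 ratio lay between 0.21 and 1.41 under 18 alternative settings, and the mix of sexes differed between the libraries. Ezh2, the methyltransferase that writes the mark, had 104 KO and 280 control UMIs (log2 ratio -0.15, interval 0.712 to 1.13).

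The label was checked with 30 astrocyte markers outside the rule, all 30 of which were detected in both libraries. Their summed level was 33220 CPM in KO astrocytes and 37220 CPM in control astrocytes, against 2231 and 1851 CPM in all other KO and control cells. The gap was narrower for some of these other cells. The sum was 19375 CPM in KO and 11256 CPM in control Slc1a3-positive cells that fell just short of the rule. Cells left out for Foxj1 had 12061 CPM in the KO and 9639 CPM in the control library. Hopx- and Tfap2c-positive cells that the rule did not take had 11264 and 10423 CPM. In every KO astrocyte the sum was at least 7908 CPM and in every control astrocyte at least 9449 CPM. Slc1a2, the glutamate transporter GLT-1, stood at 1239 CPM in KO and 1266 CPM in control astrocytes, and at 136 and 133 CPM in KO and control neurons. Much of the sum was Fabp7, the brain fatty acid binding protein, at 17177 CPM in KO and 21681 CPM in control astrocytes. Markers of other cells were low by comparison, with 14 neuron markers at 630 CPM in KO and 276 CPM in control astrocytes, against 11078 and 11783 CPM in KO and control neurons, and 8 endothelial markers at 28.6 and 29.7 CPM. The neurons were selected on Stmn2, which is among these neuron markers. The 15 radial glia and neural stem cell markers were shared more widely, at 3811 CPM in KO and 3315 CPM in control astrocytes and at 3801 and 3818 CPM in Hopx- and Tfap2c-positive cells that the rule did not take. That last set was not screened for Foxj1 or vascular genes, so it is not one of stem cells alone. It held Foxj1 at 1101 CPM in KO and 570 CPM in control cells, and 8 ependymal markers at 3169 and 2320 CPM. Its control cells also held red blood cell markers at 6602 CPM.

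**Figure D1:**
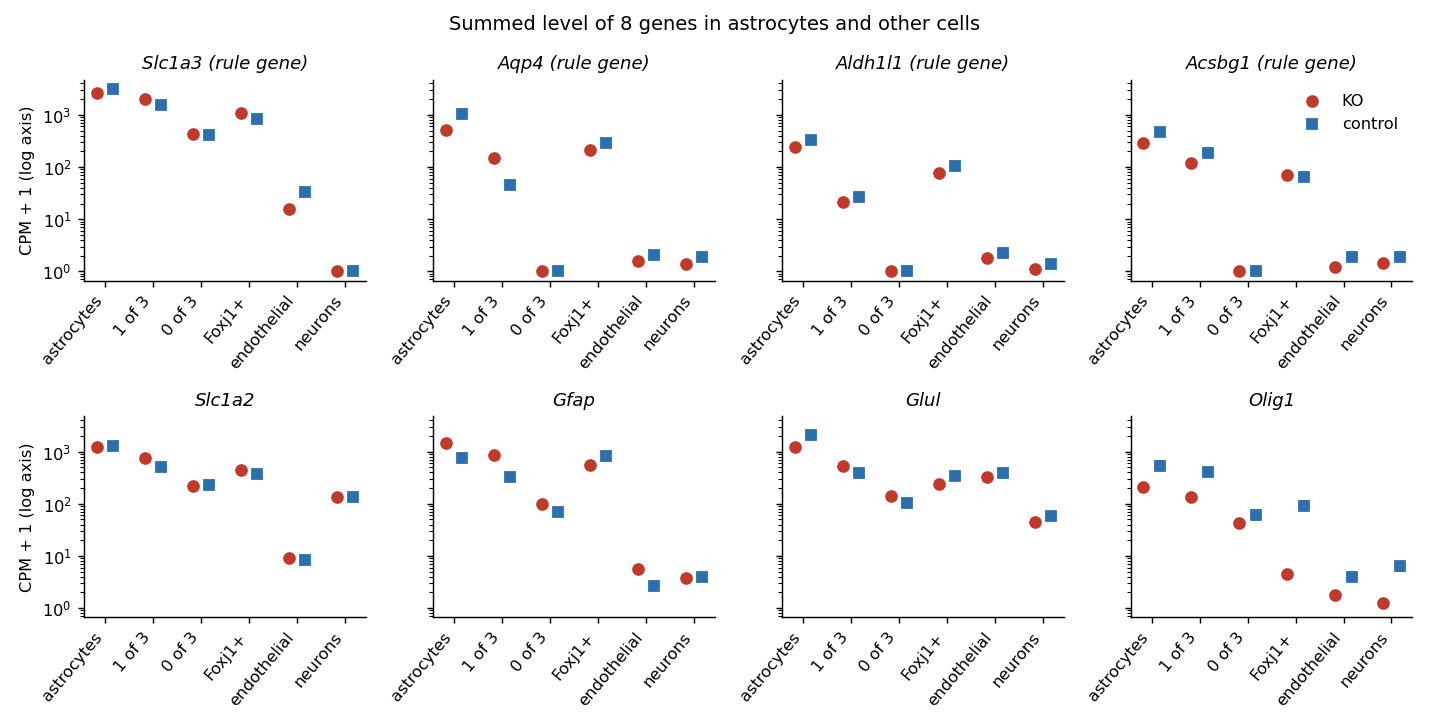
Summed level (CPM + 1, log axis) of the 4 rule genes and of Slc1a2, Gfap, Glul and Olig1 in the KO library (circles, left) and the control library (squares), for the astrocytes, for Slc1a3-positive cells with 1 or 0 of the 3 further genes, for cells left out for Foxj1, for endothelial cells and for neurons. Aqp4 was at 515 CPM in KO and 1042 CPM in control astrocytes, and Slc1a2 at 1239 and 1266 CPM. Slc1a3 is absent from the neurons by their definition.

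Because the rule needs RNA of Slc1a3, Aldh1l1, Aqp4 and Acsbg1, their levels are given as a description. Slc1a3 (chr15:8634124-8710764, minus strand) had a median of 20 UMIs per KO astrocyte and 19 per control astrocyte. Aldh1l1 (chr6:90486427-90600203, plus strand) had 244 CPM in KO and 335 CPM in control astrocytes, and Acsbg1 (chr9:54604877-54661870, minus strand) had 294 and 473 CPM. Aqp4, the channel of astrocyte endfeet, had a median of 2 UMIs per KO astrocyte (quartiles 1 and 4) and 4 per control astrocyte (quartiles 1 and 10), and 515 against 1042 CPM. Its distributions overlapped, with a maximum of 38 UMIs in a KO cell and 34 in a control cell, and at 2000 UMIs per cell Aqp4 was found in 48.6% (38.8% to 58.5%) of KO and 68.1% (62.5% to 73.3%) of control astrocytes. Among cells just inside the threshold, with 2 of the 3 further genes, Slc1a3 stood at 2639 CPM in KO and 3034 CPM in control cells and Aqp4 at 429 and 622 CPM. Just outside it, with 1 of the 3 genes, Slc1a3 stood at 1998 and 1556 CPM and Aqp4 at 150 and 43.8 CPM, so the rule cuts a gradient.

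Astrocytes made up 5.54% (4.57% to 6.65%) of the cells of the KO library and 10.6% (9.49% to 11.7%) of those of the control library, a log2 ratio of -0.93 (ratio interval 0.418 to 0.654). The share depends on the genes that define it. With all 3 further genes required it was 3.15% in the KO and 6.11% in the control library, and with cells thinned to 2000 UMIs 3.32% and 7.0%. With at least 1 of the 3 genes it was 9.20% and 15.1% (log2 ratio -0.72). When Foxj1 was not used to leave cells out, the shares were 9.25% and 11.9%, with a log2 ratio of -0.36, since the Foxj1 condition alone removed 73 KO and 39 control cells. Those Foxj1-positive cells held 8 ependymal markers at 3637 CPM in KO and 4251 CPM in control cells. Restricted to Xist-positive cells free of Y-linked UMIs, the astrocyte shares were 5.46% and 10.3%. The rule counts cells by RNA of Aldh1l1, Aqp4 and Acsbg1, which stood lower in KO astrocytes, and the part this has in the share was not tested. With 1 pool of animals per genotype, dissection, dissociation and genotype cannot be told apart as sources of a share.

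Clustering of the 429 astrocytes gave 7 groups, each of which held both libraries and each of which had astrocyte markers outside the rule at 26459 to 45863 CPM. Their leading genes were ranked in the same cells that formed the clusters and are given as a description. Genes of the lists, such as Gpr37l1, Slc7a10, Syt1, Lpar1 and Agt, were left out of the clustering itself. Cluster 0 (25 KO and 79 control cells) was led by Gpr37l1, a receptor of astrocytes, Slc7a10, a serine transporter, and Dbx2, a homeobox factor. Cluster 1 (17 and 75 cells) had Aqp4 at 1670 CPM and Glul, glutamine synthetase, at 2428 CPM, but was led by the neuronal genes Sncb, Syt1 and Npy, with neuron markers at 987 CPM. A single KO cell held 70 of the 83 Npy UMIs, 52 of the 72 Syt1 UMIs and 288 neuron marker UMIs of this cluster. Cluster 2 (32 and 39 cells) was led by Tspan18, the lysophosphatidic acid receptor Lpar1, Naaa, Sfrp1 and Entpd2, and held Clu, the secreted chaperone clusterin, at 2356 CPM, radial glia markers at 5164 CPM and ependymal markers at 145 CPM.

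The other groups were smaller. Clusters 3 (14 KO and 44 control cells) and 6 (3 and 25 cells) were led by mitotic genes such as Aurkb, Kif20a and Pbk, and 56 of 58 and 26 of 28 of their cells carried UMIs of at least 3 G2/M genes. Cluster 4 (8 and 39 cells) was led by Rhcg and Fgfbp3. Cluster 5 (10 and 19 cells) was led by Rspo3 and Gdf10, secreted ligands, and Agt, angiotensinogen. It had Gfap, the astrocyte intermediate filament, at 3036 CPM and no UMI of Olig1, together with ependymal markers at 305 CPM. Among mural cell markers, Rgs5 stood at 476 CPM there, while Acta2 and Pdgfrb were at 11.1 CPM each and Vtn, Kcnj8, Abcc9 and Cspg4 had no UMI.

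Cluster 2 differed in share between the libraries beyond counting error. It held 29.4% (21% to 38.8%) of KO astrocytes and 12.2% (8.81% to 16.3%) of control astrocytes. Depth inside cluster 2 was unequal, at a median of 6860 UMIs in KO and 3760 UMIs in control cells. When clustering was repeated with 743 genes dropped for intervals past 1.5-fold inside a cluster, the group that took 57 of the 71 cells of cluster 2 held 31.2% of KO and 10.3% of control astrocytes. Cluster 1 held 15.6% (9.36% to 23.8%) of KO and 23.4% (18.9% to 28.5%) of control astrocytes, and cluster 6 held 2.75% (0.571% to 7.83%) and 7.81% (5.12% to 11.3%). The intervals of both overlapped. In the repeated clustering 26 of the 28 cells of cluster 6 joined a group with 27.5% of KO and 32.8% of control astrocytes, and 76 of the 92 cells of cluster 1 a group with 11.9% and 22.2%. Clusters 2 and 5 had the highest sums of ependymal markers, and also of radial glia markers, at 5164 and 4588 CPM. The stem cell gene Tfap2c stood at 93.1 and 177 CPM there. Of all astrocytes, 15 KO and 5 control cells held at least 2 ependymal markers. Without clusters 2 and 5, astrocytes were 3.41% of the KO and 8.65% of the control library (log2 ratio -1.34). The part that ciliated-cell RNA has in these differences was not tested.

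**Figure D2:**
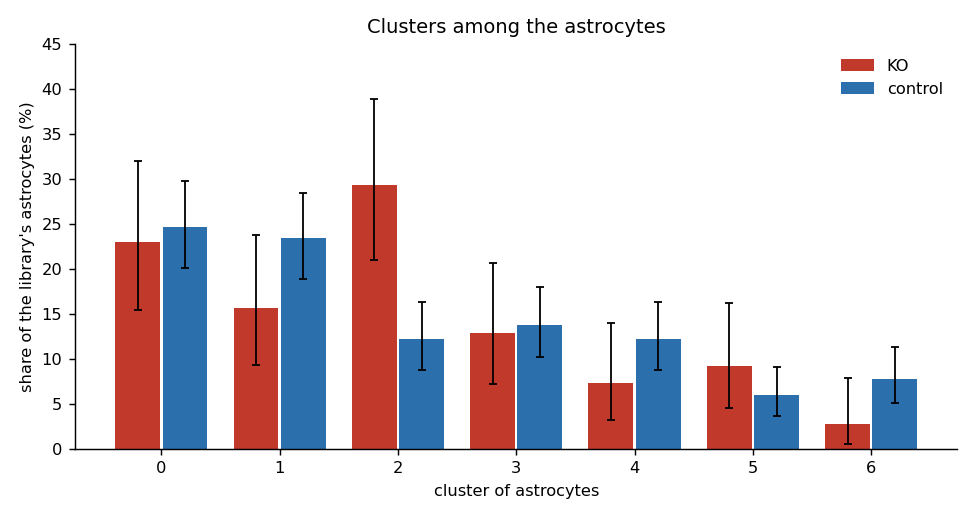
Share of KO astrocytes (left of each pair, n = 109 cells) and control astrocytes (n = 320 cells) in each of the 7 clusters, in percent, with 95% Clopper-Pearson intervals. Cluster 2 holds 29.4% of KO and 12.2% of control astrocytes.

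Dividing astrocytes, with UMIs of at least 3 of 30 G2/M genes, were 23 of 109 in the KO library (21.1%, 13.9% to 30.0%) and 81 of 320 in the control library (25.3%, 20.6% to 30.4%). The ratio of these shares had an interval of 0.501 to 1.34, and at 2000 UMIs per cell the shares were 17.8% in KO and 18.1% in control astrocytes. At this depth no difference in the share of cells in G2 or mitosis was detectable. Of the 30 G2/M genes, 1 was higher and 2 were lower in KO astrocytes by at least 1.5-fold. Top2a, the topoisomerase of mitotic chromosomes, had 263 CPM in KO and 229 CPM in control astrocytes, and Hmmr, a spindle protein, had 41.2 and 72.7 CPM.

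Over all 9841 genes with at least 20 UMIs in the astrocytes of both libraries, the median log2 ratio of KO to control CPM was 0.02 (quartiles -0.26 and 0.34). At least 1.5-fold higher levels in KO astrocytes were found for 1334 genes, 13.6% of those measured, and at least 1.5-fold lower levels for 900 genes, 9.15%. These percentages are the background against which the counts per gene group stand. Counts of a group near them say nothing particular of that group. Ratios were formed on the log2 scale with 0.5 UMI added to each sum, and the groups below were read at the same limit of 20 UMIs.

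Of the 12 genes ranked highest in KO astrocytes by whichever end of the ratio interval lay closest to 1, 6 rested largely on a single KO cell. That cell had 28580 UMIs, lay in cluster 1 and held 52.3% of all neuron marker UMIs of the KO astrocytes. It supplied 89.7% of the KO UMIs of Npy, a neuropeptide (78 KO and 17 control UMIs), 85.2% of those of Syt1, a synaptic vesicle calcium sensor (61 and 19), and 54.8% of those of the noncoding RNA Meg3 (456 and 304). The remaining 3 with this top cell were Snhg11, Basp1 and Gria1. A single control cell likewise held 91.1% of the red blood cell marker UMIs of the control astrocytes, and another held 69.1% of their microglia marker UMIs. Without these 3 cells, 5 of the 12 genes above and all 12 below stayed in the ranking.

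Among those 5 were Prm1, Rspo3, Mia and Pter. Rspo3, a secreted enhancer of Wnt signalling, had 48 UMIs in 17 KO cells and 15 UMIs in 7 control cells (log2 ratio 2.92, interval 4.27 to 14.9), and 85.4% of the KO and 73.3% of the control UMIs lay in cluster 5. Without clusters 2 and 5 its log2 ratio was 1.72. Pter (75 KO and 48 control UMIs, log2 ratio 1.92) and Mia (46 and 22, log2 ratio 2.32) had log2 ratios of -0.22 and 0.28 without these clusters. Naaa, a lipid amidase, Wls, the carrier of Wnt ligands, Lpar1 and Notch2 entered the ranking when the 3 cells were left out, a step taken after the values were seen.

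Notch2, a receptor of the Notch pathway (chr3:98013527-98150361, plus strand), had 121 UMIs in 53 of 109 KO astrocytes and 93 UMIs in 62 of 320 control astrocytes. Its level was 138 CPM in KO and 43.9 CPM in control astrocytes, a log2 ratio of 1.65 (interval 2.39 to 4.18), and it lay between 1.5 and 2.02 under 18 alternative settings. The excess was seen in each of the 4 largest clusters, with log2 ratios of 1.79 in cluster 0, 1.58 in cluster 1, 1.13 in cluster 2 and 1.0 in cluster 3. In endothelial cells, which also express Notch2, the log2 ratio was 0.25.

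**Figure D3:**
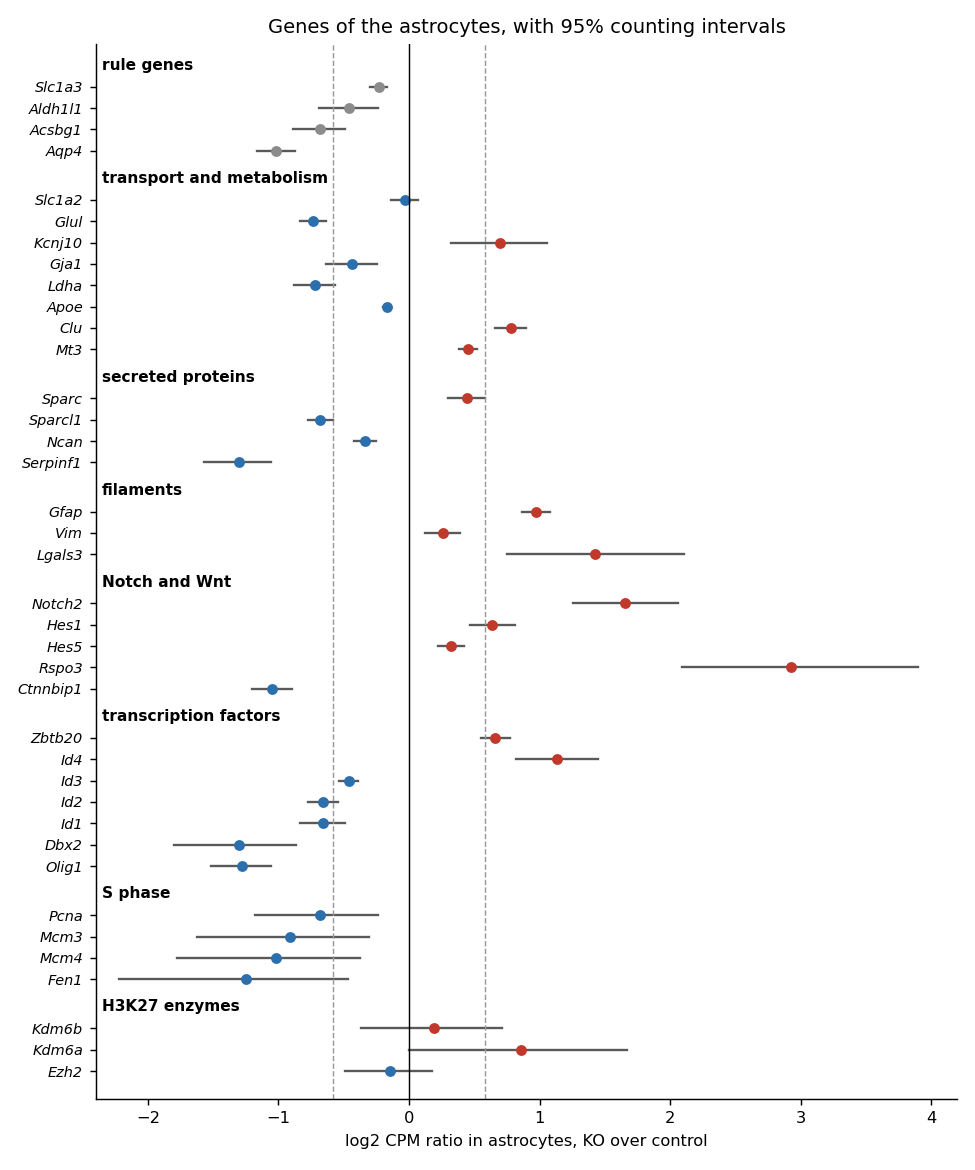
Log2 ratio of KO to control CPM in the astrocytes for the rule genes (grey) and for genes of each role (red above 0, blue below), with 95% counting intervals as bars and dashed lines at 1.5-fold. Notch2 stands at 1.65 and Ctnnbip1 at -1.05.

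The genes ranked lowest in KO astrocytes included several with high counts in many cells. Ctnnbip1 (chr4:149518236-149566437, plus strand), which encodes an inhibitor of the binding of beta-catenin to TCF factors, had 421 UMIs in 100 KO astrocytes and 2115 UMIs in 295 control astrocytes. That is 481 against 998 CPM, a log2 ratio of -1.05 (interval 0.433 to 0.536), with a range of -1.19 to -0.82 under 18 alternatives. It was detected in nearly the same share of cells, 91.7% of KO and 92.2% of control astrocytes, so the difference lay in UMIs per cell. The log2 ratio of Ctnnbip1 was below 0 in clusters 0 to 3 and 0.14 in endothelial cells.

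Olig1 (chr16:91269772-91271933, plus strand), a transcription factor best known from the oligodendrocyte lineage, had 186 KO and 1096 control UMIs, or 213 against 517 CPM. It was found in 50 of 109 KO astrocytes (45.9%) and 231 of 320 control astrocytes (72.2%), and its log2 ratio was -1.28 (interval 0.35 to 0.481). Neurons, which should lack Olig1, had 0.3 CPM in KO and 5.5 CPM in control cells. Dbx2 followed, with 46 KO and 278 control UMIs in 26 and 144 cells (log2 ratio -1.31, interval 0.287 to 0.549). Serpinf1, the secreted factor PEDF, had 147 and 883 UMIs in 20 and 125 cells (log2 ratio -1.31), with -1.48 in cluster 1 but 0.16 in cluster 3.

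Lower counts lay behind the other genes of this end. Pdlim3, a LIM domain protein of actin bundles, had 6 UMIs in 3 KO cells and 102 in 51 control cells (log2 ratio -2.70, interval 0.0511 to 0.321). Nrn1, the surface protein neuritin, had 21 and 152 UMIs (log2 ratio -1.55), and Ptchd4, a patched-related membrane protein, had 18 and 127 (log2 ratio -1.51). Nptx2, a secreted pentraxin, and Mylip, a ubiquitin ligase of the LDL receptor, each had 3 KO and 48 control UMIs (log2 ratio -2.52). For 2 genes the ratio lay near 0 in a subset of cells. Gadd45g, a growth arrest gene (242 KO and 1242 control UMIs, log2 ratio -1.08), stood at -0.04 and Creg2, a secreted glycoprotein (9 and 93 UMIs, log2 ratio -2.02), at -0.08 when only Xist-positive cells free of Y-linked UMIs were used. In the control pool, cells of different sex come from different animals, so sex and animal cannot be told apart.

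Genes for glutamate handling differed little apart from glutamine synthetase. Of 11 measured members, 1 was higher and 1 lower in KO astrocytes by at least 1.5-fold, with a median log2 ratio of -0.07. Glul had 1067 UMIs and 1220 CPM in KO astrocytes, against 4301 UMIs and 2030 CPM in control astrocytes (log2 ratio -0.73, interval 0.562 to 0.643). Slc1a2 was nearly level, with 1083 and 2683 UMIs (log2 ratio -0.03, interval 0.911 to 1.05). The GABA transporter Slc6a11 had a log2 ratio of -0.07. Of 9 genes for potassium, water and gap junctions, 2 were higher and 0 lower; Aqp4, at a log2 ratio of -1.02, was not counted there because the rule used it. Kcnj10, the inward rectifier potassium channel Kir4.1, had 121 CPM in KO and 75 CPM in control astrocytes (log2 ratio 0.69, interval 1.251 to 2.08), while Gja1, the gap junction protein connexin 43, had 326 and 442 CPM (log2 ratio -0.44).

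Among 17 measured receptors of astrocytes, 2 were higher and 2 lower. Grm3, the metabotropic glutamate receptor mGluR3, had 95 UMIs and 109 CPM in KO and 379 UMIs and 179 CPM in control astrocytes (log2 ratio -0.71, interval 0.480 to 0.762). S1pr1, a sphingosine 1-phosphate receptor, had 158 and 257 UMIs (log2 ratio 0.58), just under the limit of 1.5-fold. Of 17 secreted proteins that organise synapses, 2 were higher and 1 lower. This was Sparcl1, the synapse-promoting protein hevin, with 1235 CPM in KO and 1978 CPM in control astrocytes (log2 ratio -0.68, interval 0.583 to 0.668). Its relative Sparc, which opposes it, had 703 and 518 CPM (log2 ratio 0.44, interval 1.23 to 1.5). Over all astrocytes the paired genes thus lay on opposite sides of 0. The log2 ratio of Sparc ranged from -0.42 to 0.68 under 18 alternatives and kept its sign in 17.

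Transcription factors of astrocytes had a median log2 ratio of 0.48 over 27 measured members, against 0.02 over all genes, with 8 higher and 4 lower. Above were Zbtb20, a hippocampal identity factor, with 1233 CPM in KO and 781 CPM in control astrocytes (log2 ratio 0.66, interval 1.46 to 1.71), and Hes1, a Notch-driven repressor, with 534 and 343 CPM (0.64). Emx1, a factor of the dorsal telencephalon, stood at 70.9 CPM in KO and 34.5 CPM in control astrocytes (log2 ratio 1.04). The general astrocyte factors Sox9 and Nfia had log2 ratios of 0.57 and 0.48, above the median over all genes but under the limit of 1.5-fold. Below were Id1 and Id2, inhibitors of bHLH factors that BMP signals induce, with 397 against 628 CPM and 932 against 1471 CPM (both log2 ratios -0.66). Zic1 had 10 KO and 80 control UMIs (log2 ratio -1.66). Id4 went the other way, with 186 CPM in KO and 85.0 CPM in control astrocytes (log2 ratio 1.13), but 36.8% of its KO and 13.9% of its control UMIs lay in cluster 5, and without clusters 2 and 5 its log2 ratio was 0.15. The median of the list was 0.20 without these clusters.

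Filament and reactive genes had a median log2 ratio of 0.57 over 15 measured members, with 7 higher and 0 lower. Gfap (chr11:102887336-102900912, minus strand) had 1293 UMIs in 96 KO astrocytes and 1594 UMIs in 256 control astrocytes. Its level was 1479 CPM in KO and 752 CPM in control astrocytes, a log2 ratio of 0.98 (interval 1.83 to 2.12). Within clusters the values were uneven, at 0.42, 0.87, -0.01 and 0.92 in clusters 0 to 3. Cluster 5, with 10 KO and 19 control cells, held 31.3% of the KO and 8.97% of the control Gfap UMIs. With cells of at least 1000 genes, 2000 UMIs and at most 5% mitochondrial UMIs the log2 ratio of Gfap was 0.29. Lgals3 and Lgals1, galectins of reactive glia, had log2 ratios of 1.42 and 0.86, Vim, vimentin, 0.26, and Nes, nestin, -0.27. Without clusters 2 and 5 the median of the list was 0.16. Clu, at 1173 CPM in KO and 685 CPM in control astrocytes (log2 ratio 0.78), stood at 0.19 without those clusters.

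**Figure D4:**
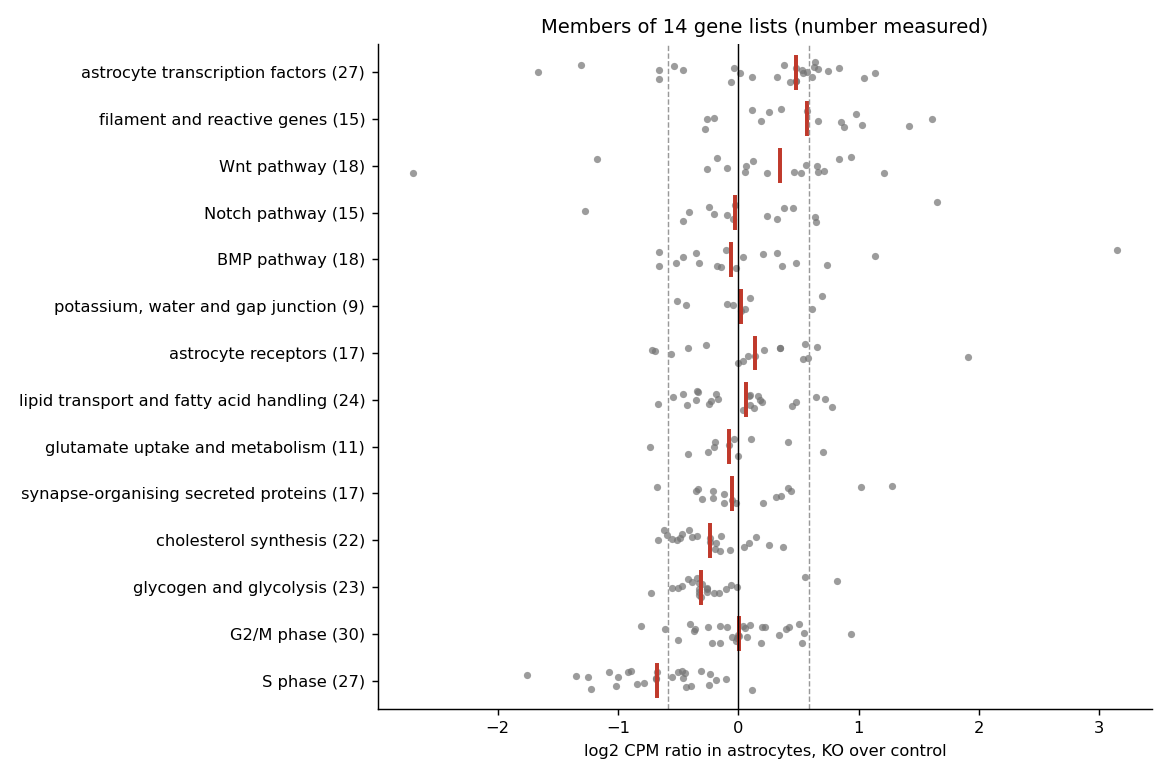
Log2 ratio of KO to control CPM in the astrocytes for the measured members (points) of 14 gene groups, with the median of each group as a red bar and dashed lines at 1.5-fold. The S phase group has a median of -0.68 and the filament and reactive group 0.57.

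Of 22 cholesterol synthesis genes, 0 were higher and 3 lower, with a median log2 ratio of -0.23. These were Mvd (65.2 CPM in KO, 104 CPM in control astrocytes), Hsd17b7 and Dhcr7, enzymes of the pathway, with log2 ratios of -0.67, -0.62 and -0.59. Glycolysis and glycogen genes had a median of -0.31 over 23 members, with 1 higher and 1 lower. Ldha, a lactate dehydrogenase subunit, had 480 CPM in KO and 793 CPM in control astrocytes (log2 ratio -0.72, interval 0.543 to 0.675). Of 24 genes of lipid transport and fatty acid handling, 3 were higher and 1 lower, with a median of 0.06. Log2 ratios there were -0.17 for Apoe, the main brain apolipoprotein, -0.34 for Fabp7, 0.18 for Dbi, an acyl-CoA binding protein, 0.44 for Scd2, a fatty acid desaturase, and 0.72 for Acsl3, an acyl-CoA synthetase. Metallothioneins and antioxidant genes had a median of 0.00 over 19 members, with 1 higher and 1 lower. Mt1 was level (log2 ratio 0.0097). Mt3, the brain metallothionein, had 3192 CPM in KO and 2331 CPM in control astrocytes (log2 ratio 0.45), and 0.15 without clusters 2 and 5. Interferon and MHC class I genes (2 of 10 higher, 2 lower), immediate early genes that dissociation can induce (2 of 20 higher, 2 lower) and heat shock genes (1 of 8 higher, 0 lower) had medians of -0.03, -0.05 and -0.14. Among 13 Polycomb and H3K27 enzymes 2 were higher and 0 lower, with a median of 0.19.

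In the Notch pathway, 3 of 15 measured genes were higher and 1 lower, with a median log2 ratio of -0.03. The higher genes were Notch2, Hes1 and Rbpj, the DNA-binding partner of Notch (34 KO and 53 control UMIs, log2 ratio 0.64, interval 0.980 to 2.44). The lower gene was Numb, an inhibitor of Notch, with 3 KO and 20 control UMIs (log2 ratio -1.27, interval 0.0692 to 1.23). Hes5, a repressor that Notch induces in neural stem cells and astrocytes, had 1380 CPM in KO and 1104 CPM in control astrocytes (log2 ratio 0.32, interval 1.17 to 1.34), and -0.03 without clusters 2 and 5. Nrarp and Hey1, further targets of the pathway, had log2 ratios of -0.04 and -0.24. Hes5 is the classic target, and its promoter shows what was searched: the RBPJ letters GTGGGAA, on either strand, in the 250 bases before the start and 50 after it. Among the pathway genes with a promoter sequence, 3 of 13 held a match (23.1%), against 537 of 7774 measured genes (6.91%) and 2097 of 32851 promoters (6.38%). The 250 bases before the Hes5 start (chr4:154960673-154960922, plus strand, RefSeq sequence of GRCm38.p6) are shown with both matches, 226 and 83 bases upstream, in capitals; a match is a description of letters only.
Hes5: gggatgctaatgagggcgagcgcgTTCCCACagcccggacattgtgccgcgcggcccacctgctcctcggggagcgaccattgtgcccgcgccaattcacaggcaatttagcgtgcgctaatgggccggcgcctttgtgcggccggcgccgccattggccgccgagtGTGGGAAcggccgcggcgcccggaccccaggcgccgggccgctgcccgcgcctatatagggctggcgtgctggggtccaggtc

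Counts of BMP genes were near the background, with 3 of 18 higher, 2 lower and a median log2 ratio of -0.06. The summed level of the whole list was lower, at 4242 CPM in KO and 5696 CPM in control astrocytes. Id1, Id2 and Id3 had log2 ratios of -0.66, -0.66 and -0.46, while Id4 stood at 1.13. The largest ratio was that of Bmp6, a ligand, on few counts (16 UMIs in 14 KO cells and 4 UMIs in 2 control cells, log2 ratio 3.15, interval 3.13 to 39.8). Of 18 Wnt pathway genes, 6 were higher and 2 lower, with a median of 0.35. Fzd3, a Wnt receptor, had 149 CPM in KO and 90.6 CPM in control astrocytes (log2 ratio 0.72, interval 1.3 to 2.06), and Tcf7l2, a beta-catenin partner, had 64.0 and 35.9 CPM (log2 ratio 0.84). Lef1, another such partner, had 12 KO and 68 control UMIs (log2 ratio -1.18), and Frzb, a secreted Wnt antagonist, had 2 and 39 (log2 ratio -2.70). Partners of beta-catenin thus lay on both sides of 0. Of 8 Hedgehog genes 1 was higher and 1 lower.

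Genes of DNA replication formed the group with the lowest median among the programmes examined. Of 27 measured S phase genes, 0 were higher and 14 lower by at least 1.5-fold, with a median log2 ratio of -0.68. The subunits of the replicative helicase Mcm2, Mcm3 and Mcm4 had 8, 25 and 22 UMIs in KO astrocytes, against 52, 116 and 110 in control astrocytes (log2 ratios -1.35, -0.91 and -1.02). Pcna, the replication clamp, had 56.0 CPM in KO and 90.6 CPM in control astrocytes (log2 ratio -0.68), and Fen1, the flap endonuclease, had 14 and 83 UMIs (log2 ratio -1.25). Hells, a chromatin remodeller, had 10 and 59 UMIs (-1.23), and Uhrf1, which keeps DNA methylation through replication, had 12 and 60 (-1.0). Counts per gene were low, and the median lay between -0.97 and -0.29 under 20 alternatives, the value nearest to 0 being that without dividing cells. The median of the same list was -0.41 in endothelial cells, so lower S phase values were not seen in astrocytes alone.

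Many S phase genes are targets of E2F factors. Letters of the E2F site (TTTCCCGC, TTTGGCGC, TTTCGCGC or TTTGCCGC, on either strand) were found in 10 of the 24 measured S phase genes with a promoter sequence (41.7%), against 388 of 7774 measured genes (4.99%) and 744 of 32851 promoters (2.26%). Of the S phase genes lower by at least 1.5-fold, 7 of 12 with a promoter sequence held a match, and of the others 3 of 12 did. The 250 bases before the start are shown for Hells (chr19:38930740-38930989, plus strand) and Uhrf1 (chr17:56304063-56304312, plus strand), from RefSeq on GRCm38.p6, because both genes were among the lower ones and held a match. Capitals mark the match, 62 bases upstream in Hells and 185 in Uhrf1. RefSeq gives Uhrf1 a further start, whose promoter (chr17:56303087-56303386) held 0 matches, and the promoter with the match is the one shown.
Hells: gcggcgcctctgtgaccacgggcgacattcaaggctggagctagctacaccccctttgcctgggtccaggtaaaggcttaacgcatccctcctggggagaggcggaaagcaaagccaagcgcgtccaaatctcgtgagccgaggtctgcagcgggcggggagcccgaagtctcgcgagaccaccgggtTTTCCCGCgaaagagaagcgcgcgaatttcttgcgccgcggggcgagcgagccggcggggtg
Uhrf1: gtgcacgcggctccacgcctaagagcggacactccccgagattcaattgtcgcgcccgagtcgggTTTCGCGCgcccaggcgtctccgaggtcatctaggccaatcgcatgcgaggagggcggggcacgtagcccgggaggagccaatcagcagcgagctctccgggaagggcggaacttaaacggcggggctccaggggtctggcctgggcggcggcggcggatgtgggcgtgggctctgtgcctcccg

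Markers of other cells moved with some of these results. Ependymal markers, of which 3 of 8 were measured and all 3 were higher, summed to 106 CPM in KO and 32.6 CPM in control astrocytes, and their median log2 ratio of 2.32 was -0.90 without clusters 2 and 5. Of 10 measured neuron markers 7 were higher (median 1.20), and without the cells that held 3 or more neuron markers the median was -0.56. Of 6 measured oligodendrocyte lineage markers 3 were higher and 1 lower, with a median of 0.72, while their summed level was lower, at 380 CPM in KO and 607 CPM in control astrocytes. A single cell held 22% of their KO UMIs. Red blood cell markers summed to 49.2 CPM in KO and 1356 CPM in control astrocytes. The part of these other cell types in the results was not tested. The doublet caller marked 10 KO and 12 control barcodes (0.436% and 0.338%), too few to have worked, so doublets were handled by removing the top scores as an alternative.

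The same ratios were taken within clusters, which sets aside the differing cluster shares but not differences between cells inside a cluster. Over clusters 0 to 3, Aqp4 had log2 ratios of -1.35, -1.43, -1.18 and -0.75, Glul of -0.50, -0.87, -0.57 and -0.50, and Olig1 of -0.83, -1.48, -2.98 and -0.36. Each of these stood below 0 in all 4 clusters. In cluster 2, Olig1 rested on 3 KO and 18 control UMIs. Aqp4 is a rule gene, so its values are given as a description. In cells with 1 of the 3 further genes Aqp4 was higher in the KO library, at 150 against 43.8 CPM. Hes1 was above 0 in clusters 0, 2 and 3 (0.72, 1.19 and 0.66) and at -0.03 in cluster 1. Sparcl1 was below 0 in clusters 0 to 2 and at 0.22 in cluster 3, whose cells were dividing. The clusters were formed from these same cells, so these values describe the cells and carry no test.

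**Figure D5:**
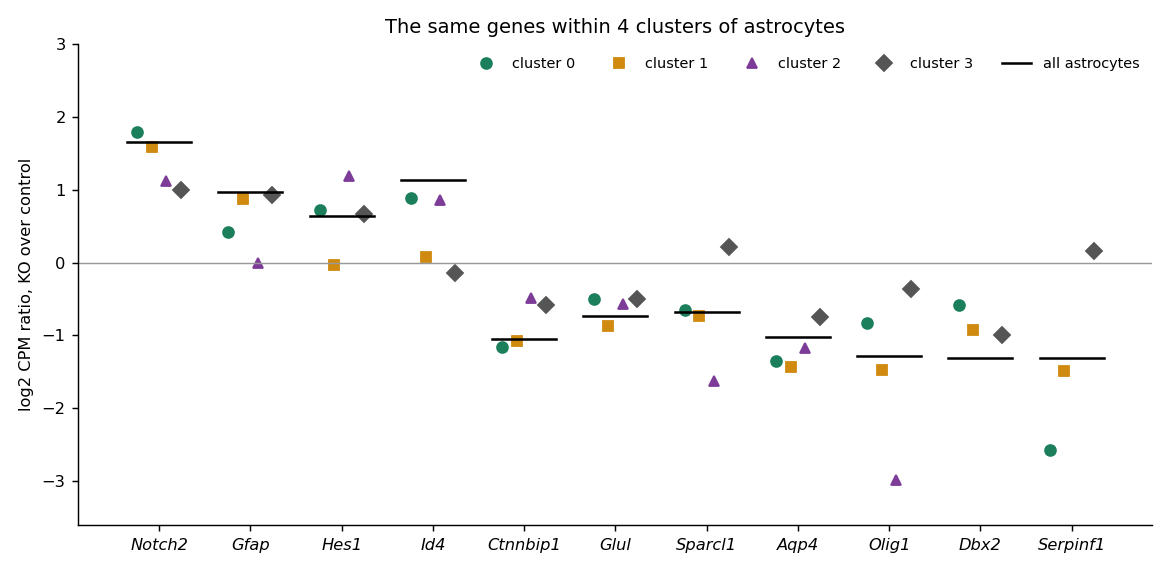
Log2 ratio of KO to control CPM of 11 genes within clusters 0 to 3 (symbols, shown where the gene had at least 20 UMIs in the cluster) and over all astrocytes (black bars). Notch2 lies between 1.0 and 1.79 and the rule gene Aqp4 between -1.43 and -0.75.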

How the data were processed

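Droplet single-cell RNA libraries of dentate gyrus cells, 1 per genotype, were analysed. The deposited matrices give raw UMI counts of 31053 genes in each barcode, without normalization, per the file headers and values. Cell Ranger 3.0.2 is named in the file headers, and Seurat 3 and the mm10 build in the submitters' processing notes, which do not say what each did. Barcodes were filtered as given above, which kept 1967 of 2292 in the KO and 3029 of 3555 in the control library.

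UMIs of the astrocytes were summed per library. Log2 ratios of CPM (KO over control) had 0.5 UMI added to each sum. With 1 library per genotype no test was made and no p-value is given. Gene groups used genes with at least 20 UMIs over both libraries and a limit of 1.5-fold. The named genes were the 12 most above and 12 most below among genes with at least 50 UMIs, ranked by whichever end of the ratio interval lay closest to 1, leaving out haemoglobin, ribosomal protein, mitochondrial and sex-linked genes and also predicted models. Members of each gene group by UMIs or fold and a few genes by name were added. Members and lists were chosen with earlier results of these data known. Wls and Naaa were named after their values were seen. Some genes that the rule takes are left unreported. Clusters came from Leiden clustering (scanpy 1.11.5, leidenalg 0.10.2; 1000 variable genes without rule and list genes, 20 components, 15 neighbours, resolution 0.5). Endothelial cells had at least 5 UMIs of Cldn5 and Flt1 together and at least 1 UMI of Pecam1. Neurons had at least 3 UMIs of Stmn2 and no UMI of Slc1a3, Cldn5 or Flt1. Detection was compared after thinning each cell to 2000 UMIs, which left out 2 KO and 16 control astrocytes. TMM and median-of-ratios scaling used edgeR 4.0.16 (R 4.3.3). Ratios and intervals were first tested on simulated Poisson counts without spread between cells or animals, which checks the calculation only. Gene positions are from GENCODE M21 (GRCm38, the build named mm10), and promoter sequences are from RefSeq.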

Additional observations from a re-analysis of the deposited data

Results flagged for a closer look

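Snhg11, a noncoding RNA gene of neurons, had opposite directions in astrocytes and endothelial cells. Its log2 ratio was 2.43 in astrocytes (54 KO and 24 control UMIs) and -1.76 in endothelial cells. The difference was not tested, and 96.3% of the KO astrocyte UMIs came from 1 cell. Without 3 cells rich in genes of another cell type, that KO cell included, the astrocyte log2 ratio was -1.99, the same direction as in endothelial cells.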

How the results depend on the processing

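With 1 library per genotype no replicate could be left out. No paired analysis was possible because each genotype has 1 library. Scaling by TMM or median of ratios moved all log2 ratios by 0.054 and 0.063. Of the alternative values for single genes, 2846 moved by less than the counting error, 429 by more and 18 were counted as reversed. For medians of gene groups these counts were 536, 91 and 10. Not every change of sign is among the values counted as reversed. Mt1, at a log2 ratio of 0.0097, kept its sign in 8 of 18 settings. The Notch pathway median, at -0.03, kept its sign in 4 of 20. 7 alternatives were chosen after seeing the data. The causes of the changes that follow were not tested.

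With at least 50 UMIs, 650 genes were higher and 468 lower by at least 1.5-fold, and with cells thinned to 2000 UMIs 788 were higher, both settings leaving fewer genes measured. The log2 ratio of the astrocyte share was -0.36 when Foxj1 was not used and -1.34 without clusters 2 and 5. The median of neuron markers was -0.11 in thinned cells, -0.47 with at least 1 of 3 rule genes, -0.56 without cells with 3 or more neuron markers and -0.63 without cluster 1. That of oligodendrocyte lineage markers was -0.33 with at least 50 UMIs, -0.94 in thinned cells, -0.41 with the stricter filter, -0.33 with all 3 rule genes and -0.29 without cluster 1, and that of ependymal markers -0.90 without clusters 2 and 5.

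Snhg11 was at -0.079 in thinned cells, -1.76 with the stricter filter, -1.78 without dividing cells, -0.96 without cells with neuron markers, -0.71 without cluster 1 and -1.99 without the 3 cells rich in genes of another type. Npy was at -0.48 with the stricter filter, and without cells with neuron markers and without cluster 1 Npy was at -0.88 and -0.23 and Syt1 at -0.75 and -0.16. Hk2 was at -0.0017 with all 3 rule genes. In thinned cells Nkd1 was at -0.14 and Ckap2l at 0.25. Gpr37l1 was at 0.34 against control cells with Y-linked UMIs, Pcna at 0.073 without dividing cells, Pter at -0.22 without clusters 2 and 5 and Uhrf1 at 0.049 as a mean fraction per cell. S phase genes had few UMIs each, so single values among them are limited by depth.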
